A study of Mus musculus with 2 samples.

Results

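The mRNA levels of 10 integrin subunits, Itga1, Itga2b, Itga4, Itga5, Itga6, Itgal, Itgam, Itgb1, Itgb2 and Itgb3, were followed across blood and endothelial cells of the E10.0 mouse embryo. They are 10 of the 24543 genes listed in each count table, and all 10 held enough UMIs (unique molecular identifiers, 1 per captured mRNA molecule) to be tested. The cells were CD31+CD44+, taken by sorting from caudal parts of E10.0 embryos (C57BL/6 background), and measured by 10x single-cell RNA sequencing. The cKO embryos were VEC-Cre;Nupr1 fl/fl, in which Cre is driven by the Cdh5 (VE-cadherin) promoter and Nupr1 is deleted in endothelial cells and the blood cells that descend from them. The controls were littermates that carried the floxed allele (Nupr1 fl/fl or Nupr1 fl/+) and no deletion. Each of the 2 replicates was a single library that pooled hashtagged cells of both genotypes, and how many embryos entered a hashtag is not given in the sources used here.

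Integrins are cell-surface receptors made of an alpha and a beta subunit that are assembled before they reach the membrane, so the subunits a cell transcribes set which receptors it can build. Itgb1 pairs with many alpha subunits, among them Itga1 (a collagen and laminin receptor), Itga4 (the VCAM1 and fibronectin receptor VLA-4), Itga5 (the fibronectin receptor) and Itga6 (a laminin receptor). Itgb2 is the common beta chain of leukocyte integrins and pairs with Itgal in LFA-1 and with Itgam in Mac-1, while Itga2b (CD41) and Itgb3 form the platelet fibrinogen receptor. CD41 is also one of the first surface markers of blood cells that emerge from hemogenic endothelium, the step called the endothelial-to-hematopoietic transition (EHT).

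The 10 genes lie on 7 chromosomes of the mouse build GRCm38 (mm10), all of them protein-coding. Itga1 lies at chr13:114953096-115101964, Itga2b at chr11:102453297-102470122 and Itga5 at chr15:103344286-103366763, these 3 on the minus strand. On the plus strand, Itga4 lies at chr2:79255426-79333123, Itga6 at chr2:71745616-71858416 and Itgal at chr7:127296260-127335138. Also on the plus strand are Itgam at chr7:128062640-128118491, Itgb1 at chr8:128685654-128733200, Itgb2 at chr10:77530252-77565708 and Itgb3 at chr11:104608000-104670476.

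Promoter sequences were matched in RefSeq (GRCm38.p6) for 6 of the 10 genes, namely Itga1, Itga2b, Itga4, Itga5, Itgam and Itgb1. The 250 bases before the RefSeq start site are shown for 4 of them, 1 for each pattern described below. Itga2b was highest in megakaryocyte-like cells, Itgam in macrophage-like and myeloid-like cells, and Itga5 in endothelium. Itga4 was highest in EHT-like, Ptprc+Myb+ and myeloid-like cells and low in megakaryocyte-like cells. Capitals mark matches on either strand to GAGGAA, a core sequence bound by the blood factor PU.1 and other Ets factors, and to TGTGGT, a core sequence bound by Runx factors. The sequences run 5′ to 3′ along the gene, from chr11:102469884-102470133 (minus strand), chr7:128062390-128062639 (plus), chr15:103366792-103367041 (minus) and chr2:79255176-79255425 (plus). For Itga2b the RefSeq start lies inside the gene span given above, so 239 of the 250 bases overlap that span.
Itga2b: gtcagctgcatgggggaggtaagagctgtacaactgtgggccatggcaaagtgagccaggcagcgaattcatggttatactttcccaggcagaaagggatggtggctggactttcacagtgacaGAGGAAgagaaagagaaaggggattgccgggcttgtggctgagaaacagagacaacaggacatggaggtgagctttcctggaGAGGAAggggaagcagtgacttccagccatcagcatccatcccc
Itgam: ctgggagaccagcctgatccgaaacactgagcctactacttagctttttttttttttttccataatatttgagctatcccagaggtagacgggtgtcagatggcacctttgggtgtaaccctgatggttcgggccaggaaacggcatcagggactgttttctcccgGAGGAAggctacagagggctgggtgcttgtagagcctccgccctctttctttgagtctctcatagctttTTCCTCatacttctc
Itga5: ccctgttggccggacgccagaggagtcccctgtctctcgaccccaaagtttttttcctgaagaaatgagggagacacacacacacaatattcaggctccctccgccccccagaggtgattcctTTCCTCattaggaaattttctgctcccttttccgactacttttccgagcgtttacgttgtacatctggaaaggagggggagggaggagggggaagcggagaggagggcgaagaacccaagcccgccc
Itga4: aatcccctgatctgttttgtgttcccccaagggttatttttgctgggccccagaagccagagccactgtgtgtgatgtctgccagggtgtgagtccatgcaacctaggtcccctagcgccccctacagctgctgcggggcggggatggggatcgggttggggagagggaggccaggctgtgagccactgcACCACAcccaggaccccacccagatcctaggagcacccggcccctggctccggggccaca
Itga2b and Itgam each held 2 matches to GAGGAA, Itga5 and Itgb1 held 1, and Itga1 and Itga4 held 0. TGTGGT was matched once, in Itga4, and the motifs did not overlap in any of the 6. Of all 32851 promoters, 23.3% held GAGGAA and 14.05% held TGTGGT in the same window, so such matches are common, and binding was not measured.

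Cells were grouped by marker genes that are not integrins. Of 2139 cells, 405 were arterial-like (Gja5), 92 carried Kitl and Esm1, 131 were EHT-like (Gfi1 with Neurl3) and 99 carried Ptprc with Myb. A further 126 were myeloid-like (Mpo with Fcgr3), 614 macrophage-like (C1qa) and 213 megakaryocyte-like (Gp9). No gate was met by 432 cells, and 27 met the gates of 2 lineages and were left out. Some pairs of gates were read as 1 population: 49 EHT-like cells also passed the Gja5 gate, and 28 Ptprc+Myb+ cells the EHT gate. The Ptprc with Myb gate was also passed by 41 myeloid-like and 19 macrophage-like cells. Longer marker lists were highest in their own gate for the macrophage, megakaryocyte, myeloid, arterial and EHT lists. Each list includes its gate genes, so this check is not independent of the gates. The plexus list was hardly higher in Kitl+Esm1+ cells (2176 CPM) than in arterial-like cells (1921 CPM), and 63 of the 92 also passed the Gja5 gate. The progenitor list was lower in Ptprc+Myb+ cells (1368 CPM) than in myeloid-like (1926 CPM) and macrophage-like cells (2090 CPM). These 2 groups are therefore named by their gate genes only. Replicate 1 held 678 cells and 32430285 UMIs and replicate 2 held 1461 cells and 91511039 UMIs, and no barcode was shared between them. The median per cell ran from 23984 UMIs in arterial-like to 82672 in myeloid-like cells.

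The UMIs of all cells of a population were added up for each genotype within each replicate, which gave 25 sums of at least 10 cells. Each level of a gene below is in CPM, the UMIs of a gene per 1000000 UMIs of the sum after TMM scaling, and each population has 4 sums unless stated. Marker list levels, above and below, are in CPM without TMM scaling, apart from the platelet list, which is TMM-scaled. Myeloid-like cells have 3 sums, since cKO replicate 1 held 6 cells, and megakaryocyte-like cells have 2, both from replicate 2, since replicate 1 held 5 control and 0 cKO cells. Levels are compared between populations for 1 gene at a time, not between genes. Rises and falls below name differences between groups of cells of the same stage, and a course in time was not tested.

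**Figure D1:**
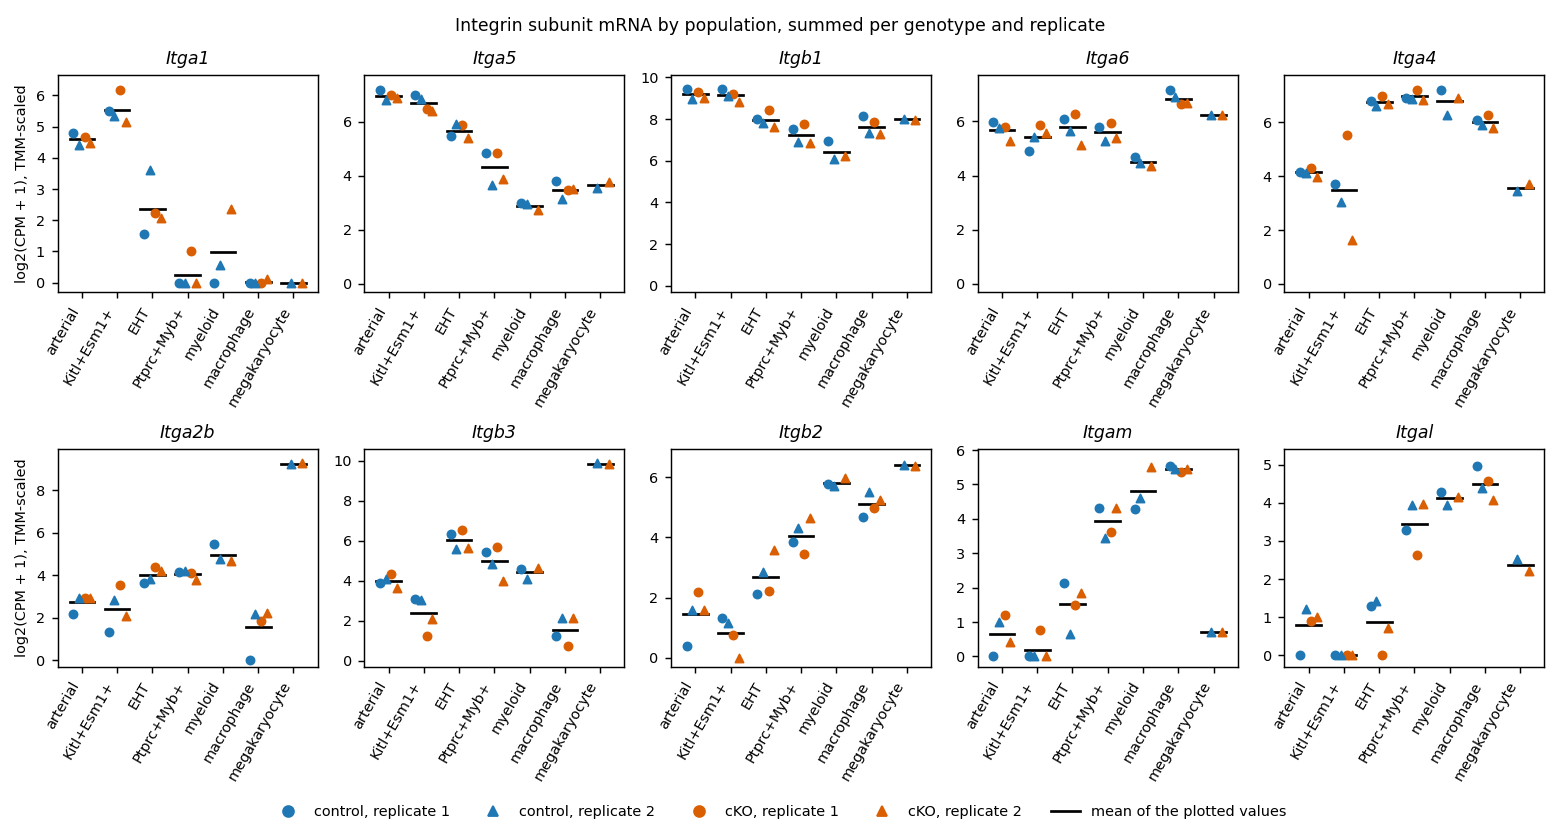
Level of each subunit as log2(CPM + 1) on the vertical axis in 7 populations, with 1 point for each sum (colour for genotype, shape for replicate) and a bar at the mean of the points. Itga1, Itga5 and Itgb1 are highest in the endothelial groups, Itga2b and Itgb3 in megakaryocyte-like cells, and Itgal and Itgam in macrophage-like and myeloid-like cells.

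Itga5, the alpha chain of the fibronectin receptor, was lower in each group in the order arterial-like, EHT-like, Ptprc+Myb+ and myeloid-like cells. It stood at 144 and 110 CPM in the control and 124 and 116 CPM in the cKO arterial-like sums of replicates 1 and 2. In EHT-like cells the same 4 sums gave 42.9, 59.3, 57.5 and 40.7 CPM, all below every arterial-like sum. In Ptprc+Myb+ cells they gave 28.0, 11.7, 27.3 and 13.8 CPM, and in myeloid-like cells the range was 5.67 to 6.97 CPM (3 sums). The log2 fold change was -1.30 ± 0.20 (SE) from arterial-like to EHT-like cells (edgeR adjusted p = 1.5e-05), -1.27 ± 0.22 from EHT-like to Ptprc+Myb+ cells (adjusted p = 0.000192) and -1.70 ± 0.29 from these to myeloid-like cells (adjusted p = 0.000106). With cells assigned by the longer marker lists, which kept 19 of the 99 Ptprc+Myb+ cells, that last value was -0.30 (adjusted p = 0.636). Macrophage-like cells at 10.4 ± 2.08 CPM (SD, n = 4) and megakaryocyte-like cells at 11.7 ± 1.44 CPM (SD, n = 2) overlapped each other.

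Itgb1, the shared partner of the matrix-binding alpha chains, was found in every population and was lowest in myeloid-like cells. Arterial-like sums held 700, 490, 624 and 521 CPM in the order control replicate 1, control replicate 2, cKO replicate 1, cKO replicate 2, and Kitl+Esm1+ sums lay among them at 456 to 703 CPM. EHT-like sums held 256, 226, 350 and 194 CPM, with no overlap with either endothelial group. The fall from arterial-like to EHT-like cells was 2.27-fold (log2 -1.18 ± 0.23, adjusted p = 0.00034). Ptprc+Myb+ cells followed at 157 ± 51.4 CPM (SD, n = 4; adjusted p = 0.0443 against EHT-like cells), and myeloid-like cells at 87.1 ± 29.2 CPM (SD, n = 3; adjusted p = 0.0148 against Ptprc+Myb+ cells). The first of these calls was lost without control replicate 2 (log2 -0.66, adjusted p = 0.134) or cKO replicate 2 (log2 -0.68, adjusted p = 0.0915). It was also lost with halved gates (log2 -0.66, adjusted p = 0.0791), doubled gates (log2 -0.48, adjusted p = 0.373) or control cells only (log2 -0.70, adjusted p = 0.307). The second was lost without cKO replicate 2 (log2 -0.81, adjusted p = 0.0743), with the longer marker lists (log2 -0.63, adjusted p = 0.1995) or with control cells only (log2 -0.67, adjusted p = 0.299). Without the whole of replicate 2 its log2 fold change was -0.75. Macrophage-like cells, at 205 ± 60.1 CPM (SD, n = 4), were 2.39-fold above myeloid-like cells (adjusted p = 0.000717). Megakaryocyte-like cells, at 259 and 245 CPM, did not pass against Ptprc+Myb+ cells (log2 0.67 ± 0.28, adjusted p = 0.0519) but did with the replicate block (log2 1.00, adjusted p = 2.57e-07).

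Itga1 was the most sharply endothelial of the subunits. Kitl+Esm1+ sums held 43.9, 39.8, 70.5 and 34.2 CPM and arterial-like sums 27.0, 20.4, 24.7 and 21.2 CPM, again in the order control 1 and 2, cKO 1 and 2, so that the groups did not overlap. Their difference of log2 1.02 ± 0.36 missed the threshold (adjusted p = 0.0842) and passed it with the replicate block (adjusted p = 0.0308). EHT-like cells were lower than arterial-like cells, at 1.93, 11.3, 3.65 and 3.23 CPM (log2 -2.23 ± 0.44, adjusted p = 0.000317), and control replicate 2 stood above the other sums there. Without replicate 1 the log2 fold change was -1.43 and the call was lost (adjusted p = 0.0749).

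In blood, Itga1 was close to absent at this depth. The Ptprc+Myb+ sums held 2 UMIs in all, against 37 in EHT-like cells, a ratio of 17.8 between EHT-like and Ptprc+Myb+ levels with a 95% counting interval of 4.59 to 153 (edgeR adjusted p = 0.00481, and 0.059 without control replicate 2 or 0.14 without replicate 2). Macrophage-like sums held 1 UMI and megakaryocyte-like sums held 0. The floor of 3 UMIs over the megakaryocyte-like sums is 0.208 CPM, against which arterial-like cells were at least 111.5-fold higher, and the 95% counting interval of the ratio starts at 90.1. The myeloid-like sums held 15 UMIs, of which 13 lay in 2 cells of cKO replicate 2 (4.09 CPM), and a single cell held 12 of these. The myeloid-like level was 53.5 times the macrophage-like level, with a 95% counting interval of 8.23 to 2253 (edgeR adjusted p = 0.00179). That interval takes UMIs as independent, so it does not cover the spread between cells. The call rested on that sum: without cKO replicate 2 the adjusted p was 0.216.

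Itga6, a laminin receptor chain, did not follow the order of its partner Itgb1. Macrophage-like sums held 143, 119, 98.1 and 100 CPM, above every sum of every other population. Myeloid-like sums held 24.8, 21.0 and 19.2 CPM (control replicates 1 and 2, cKO replicate 2), below every other sum. Neighbours in the order of the remaining groups overlapped, at mean levels of 43.5 to 74.5 CPM, and blood as a whole did not pass the test against endothelium (log2 0.18 ± 0.15, adjusted p = 0.283, 95% interval of the log2 difference -0.11 to 0.47). Itga6 rose 5.39-fold from myeloid-like to macrophage-like cells (adjusted p = 3.11e-08) and fell 2.31-fold from Ptprc+Myb+ to myeloid-like cells (adjusted p = 0.00104). Its rise in megakaryocyte-like against Ptprc+Myb+ cells (log2 0.61 ± 0.25, adjusted p = 0.0495) was called in 6 of 14 alternatives. It was lost without control replicate 2 (log2 0.60, adjusted p = 0.211) or cKO replicate 2 (log2 0.61, adjusted p = 0.148).

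Itga4, the alpha chain of VLA-4, separated EHT-like cells from the endothelium by the widest margin among the members raised there. Arterial-like sums held 16.9, 16.4, 18.5 and 14.8 CPM and EHT-like sums 109, 96.0, 125 and 102 CPM. The rise was 6.47-fold (log2 2.69 ± 0.34, adjusted p = 2.27e-06) and was called in all 15 alternatives. The level was also high in Ptprc+Myb+ cells, at 124 ± 15.6 CPM (SD, n = 4; log2 0.20 ± 0.31 against EHT-like cells, adjusted p = 0.749). In myeloid-like cells it was 114 ± 35.5 CPM (SD, n = 3; log2 -0.11 ± 0.33 against Ptprc+Myb+ cells, adjusted p = 0.856). Macrophage-like sums lay lower, at 54.7 to 75.2 CPM, a difference from myeloid-like cells that missed the threshold (log2 -0.86 ± 0.33, adjusted p = 0.0563) and passed it with the replicate block (adjusted p = 0.00641). Megakaryocyte-like cells held 9.89 and 12.1 CPM and were 11.3-fold below Ptprc+Myb+ cells (adjusted p = 1.04e-06).

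In Kitl+Esm1+ cells the Itga4 sums spread widely. They held 12.1, 7.24, 45.4 and 2.14 CPM (8, 6, 65 and 2 UMIs), so cKO replicate 1 stood apart from the other 3. An Itga4 UMI was found in 14 of 31 cells of that sum, with up to 18 in a single cell. In control replicates 1 and 2 and cKO replicate 2 it was found in 3 of 19, 2 of 22 and 2 of 20 cells.

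Itga2b and Itgb3, the 2 chains of the platelet receptor, peaked together in megakaryocyte-like cells. Itga2b stood at 592 CPM in control and 612 CPM in cKO cells of replicate 2, and Itgb3 at 947 and 912 CPM. Against Ptprc+Myb+ cells the rise was 38.6-fold for Itga2b (log2 5.27 ± 0.29, adjusted p = 1.66e-13) and 27.3-fold for Itgb3 (log2 4.77 ± 0.35, adjusted p = 1.27e-10). Replicate 1 has no sum for this population, so both values come from a single library.

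Below that peak the 2 chains took different orders. Itgb3 was next highest in EHT-like cells, with 79.1, 46.9, 90.8 and 49.1 CPM against 13.7, 16.1, 18.9 and 11.4 CPM in arterial-like cells, a 4.48-fold rise (log2 2.16 ± 0.33, adjusted p = 1.78e-05). It was lower again in Ptprc+Myb+ cells, at 42.4, 28.0, 50.5 and 14.7 CPM (log2 -0.97 ± 0.31, adjusted p = 0.0355), although these sums overlapped those of EHT-like cells. That call was lost without control replicate 1 (log2 -1.02, adjusted p = 0.137), control replicate 2 (log2 -1.05, adjusted p = 0.131) or cKO replicate 2 (log2 -0.82, adjusted p = 0.118). Itga2b was next highest in myeloid-like cells, at 42.6, 26.3 and 24.2 CPM (control replicates 1 and 2, cKO replicate 2). EHT-like sums held 11.6, 13.0, 20.1 and 17.5 CPM of Itga2b and Ptprc+Myb+ sums 16.9, 17.1, 16.0 and 12.9 CPM (log2 0.01 ± 0.30, adjusted p = 0.997), both above the arterial-like 3.50 to 6.72 CPM. The rise of Itga2b from arterial-like to EHT-like cells was 2.64-fold (adjusted p = 0.00129), a call lost with control cells only (log2 1.27, adjusted p = 0.157).

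Both chains were low in macrophage-like cells. Their sums had 0 to 3.61 CPM of Itga2b and 0.654 to 3.41 CPM of Itgb3, falls of 9.77-fold (adjusted p = 5.9e-09) and 7.27-fold (adjusted p = 6.73e-06) from myeloid-like cells. Kitl+Esm1+ cells overlapped arterial-like cells in Itga2b (1.51 to 10.5 CPM). Itgb3 was 3.49-fold lower in Kitl+Esm1+ than in arterial-like cells (1.40 to 7.56 CPM, 16 UMIs in all; adjusted p = 0.038), a call lost when any 1 of the 4 sums per population was left out (log2 -2.13 to -1.23, adjusted p = 0.056 to 0.139).

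Transcripts of platelet genes were measured beside these values. The list of 10 platelet genes summed to 30108 and 31138 CPM in megakaryocyte-like cells, to 458 to 824 CPM in macrophage-like and to 33.3 to 113 CPM in EHT-like cells. Itgb3 equalled 3.03% to 3.04% of the list's level in megakaryocyte-like cells, 43.4% to 273% in EHT-like cells and 0.143% to 0.632% in macrophage-like cells. Itga2b equalled 1.90% to 2.03%, 14.4% to 60.3% and 0% to 0.647% of it, respectively. The EHT-like ratios of both chains lay above the megakaryocyte-like ones, as did those of arterial-like, Ptprc+Myb+ and myeloid-like cells. In these 3 groups Itgb3 equalled 11.5% to 110%, 12.7% to 80.3% and 15.0% to 48.4% of the list. In EHT-like cells Itgb3 equalled 193% (control) and 273% (cKO) in replicate 1, and 51.9% and 43.4% in replicate 2. Kitl+Esm1+ ranges overlapped the megakaryocyte-like ones. Carry-over of platelet transcripts was not tested.

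Itgb2, the leukocyte beta chain, was highest in megakaryocyte-like cells. They held 84.0 and 82.2 CPM, above myeloid-like sums at 54.2, 50.7 and 61.7 CPM and macrophage-like sums at 24.6, 44.2, 30.4 and 36.4 CPM, none of which overlapped. Against Ptprc+Myb+ cells, at 13.5, 18.9, 9.80 and 23.9 CPM, the rise was 5.08-fold in megakaryocyte-like cells (adjusted p = 6.88e-07) and 3.43-fold in myeloid-like cells (adjusted p = 7.41e-05; log2 0.16, adjusted p = 0.741, with the longer marker lists). The difference between macrophage-like and myeloid-like cells (log2 -0.69 ± 0.27) had an adjusted p of 0.0571, and 0.00874 with the replicate block. In the megakaryocyte-like sums the macrophage list (8 genes, 0 at 0 UMIs) summed to 17.1 to 22.1 CPM, against 4950 to 6729 CPM in macrophage-like cells. The myeloid list summed to 26.4 to 31.0 CPM, against 6049 to 8831 CPM in myeloid-like cells. The erythroid list stood at 958 to 2987 CPM in the megakaryocyte-like sums. The part of macrophage, myeloid or erythroid transcripts in the megakaryocyte-like levels was not tested.

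The alpha partners of Itgb2 did not follow it into megakaryocyte-like cells. Itgam, the alpha chain of Mac-1, stood at 0.626 CPM in each of the 2 megakaryocyte-like sums (5 and 4 UMIs), 22.6-fold below Ptprc+Myb+ cells (adjusted p = 3.01e-08). Itgal, the alpha chain of LFA-1, stood at 4.76 and 3.60 CPM there, 2.53-fold below Ptprc+Myb+ cells (adjusted p = 0.0114). The latter call was lost without control replicate 2 (log2 -1.32, adjusted p = 0.118) or cKO replicate 2 (log2 -1.04, adjusted p = 0.192).

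Both alpha chains were highest in macrophage-like cells. Itgam held 45.8, 43.1, 40.2 and 43.0 CPM there, a narrow range, and 18.6, 23.4 and 44.7 CPM in myeloid-like cells (control replicates 1 and 2, cKO replicate 2). Itgal held 30.1, 20.1, 22.6 and 16.0 CPM in macrophage-like and 18.6, 14.5 and 16.7 CPM in myeloid-like cells. For neither gene did these 2 populations pass the test (adjusted p = 0.151 and 0.383).

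Itgb2 and both alpha partners rose from EHT-like to Ptprc+Myb+ cells. Itgal went from 1.45, 1.69, 0 and 0.646 CPM (7 UMIs in all) to 8.68, 14.4, 5.16 and 14.7 CPM, 11.1-fold (log2 3.48 ± 0.54, adjusted p = 6.74e-05). Itgam went from 3.38, 0.565, 1.82 and 2.59 CPM to 18.8, 9.92, 11.3 and 18.8 CPM, 7.05-fold (log2 2.82 ± 0.41, adjusted p = 1.81e-05). Itgb2 was 2.83-fold higher in this comparison (log2 1.50 ± 0.36, adjusted p = 0.00456). The call was lost with doubled gates (log2 1.39, adjusted p = 0.0598) or control cells only (log2 1.73, adjusted p = 0.0584). Itgb2 was also higher in EHT-like cells, at 3.38, 6.21, 3.65 and 10.99 CPM, than in arterial-like cells, at 0.318 to 3.52 CPM (log2 1.61 ± 0.48, adjusted p = 0.0098), although 1 arterial-like sum overlapped. This call was lost without cKO replicate 2 (log2 1.24, adjusted p = 0.111) and without the whole of replicate 2 (log2 1.06, adjusted p = 0.268).

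Some calls among these genes did not hold. For Itgam, the EHT-like value against arterial-like cells (16 against 7 UMIs, log2 1.70 ± 0.67, adjusted p = 0.04995) lost its call with the replicate block (adjusted p = 0.054), and in 9 of 15 alternatives in all. The rise of Itgam from Ptprc+Myb+ to myeloid-like cells (log2 0.98 ± 0.29, adjusted p = 0.0147) kept its direction and call in 7 of 15 alternatives. With cells assigned by the longer marker lists it reversed to -0.98 (adjusted p = 0.00744), and it was lost without control replicate 2 (1.01, adjusted p = 0.0553), cKO replicate 1 (0.83, adjusted p = 0.0607) or cKO replicate 2 (0.61, adjusted p = 0.328). In the endothelium, Itgal had 0 UMIs in the Kitl+Esm1+ sums and 9 in the arterial-like sums. The floor of 3 UMIs over the Kitl+Esm1+ sums is 0.775 CPM, against which Ptprc+Myb+ cells were at least 13.4-fold higher, and the 95% counting interval of the ratio starts at 10.6.

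**Figure D2:**
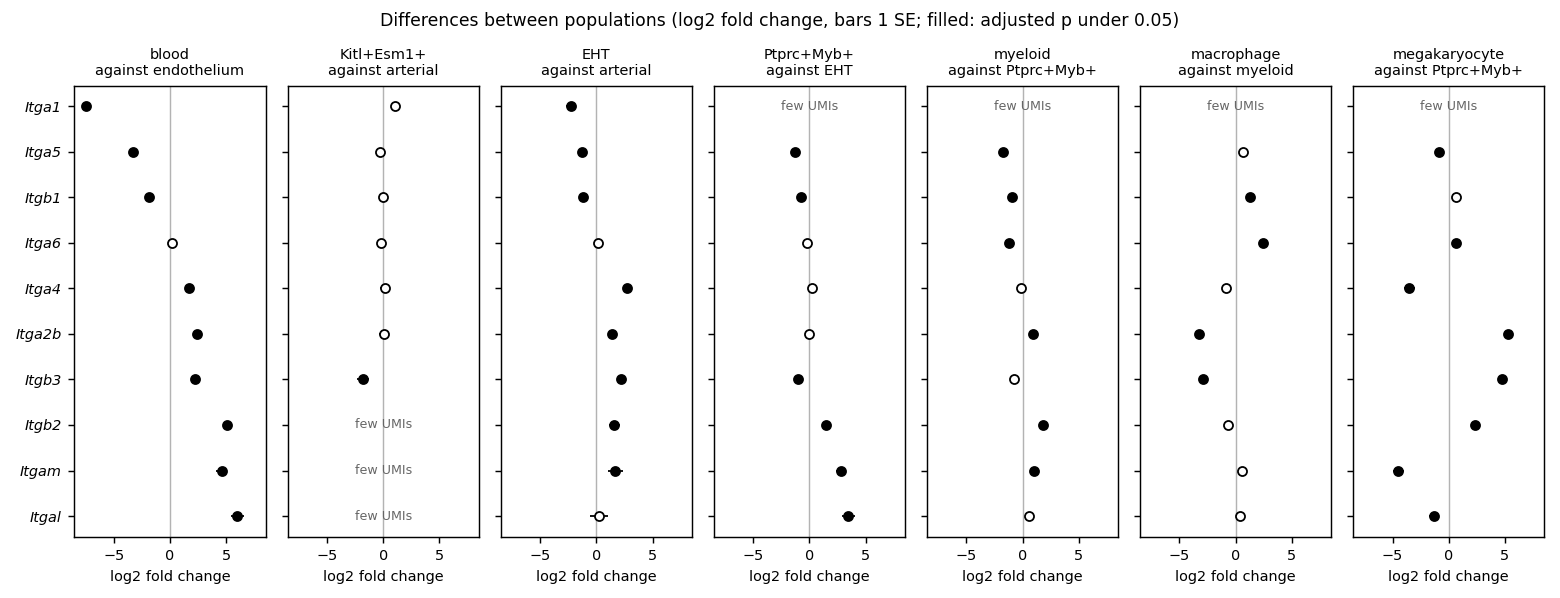
Log2 fold change of each subunit in 7 comparisons between populations, with bars of 1 SE and filled points where the adjusted p is under 0.05. Points are left out where 1 population held at most 3 UMIs in all. Itga5 lies to the left of 0 in EHT-like against arterial-like, Ptprc+Myb+ against EHT-like and myeloid-like against Ptprc+Myb+ cells. Itga2b, Itgb3 and Itgb2 lie to the right in megakaryocyte-like against Ptprc+Myb+ cells.

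Counted over the 10 subunits, 6 were higher and 3 lower in the mean of the 4 blood populations than in the mean of the 2 endothelial groups. In that comparison 37.5% of all 11305 genes tested were called higher and 34.5% lower, so a call by itself was common. From arterial-like to EHT-like cells 5 of 10 were higher and 3 lower, beside 15.0% and 19.9% of all genes. From EHT-like to Ptprc+Myb+ cells 3 were higher and 4 lower, beside 6.36% and 9.05%. Myeloid-like against Ptprc+Myb+ cells gave 3 higher and 3 lower, beside 11.8% and 13.6%, and macrophage-like against myeloid-like cells 2 higher and 3 lower, beside 15.1% and 11.3%. With the replicate block the last count was 2 higher and 5 lower. Megakaryocyte-like against Ptprc+Myb+ cells gave 4 higher and 4 lower, beside 22.3% and 22.2%. Kitl+Esm1+ against arterial-like cells gave 0 higher and 1 lower, beside 4.14% and 4.36%. The 10 members are few, so 1 more or fewer call moves each share by 10 percentage points. The median log2 fold change of the 10 was 1.94 from endothelium to blood, against 0.07 for all genes, and 0.81 from arterial-like to EHT-like cells, against -0.04 for all genes.

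Of the 44 member calls between populations, 25 held in every alternative tried. Separate fits of the 2 pools were possible for 27 of the 44 calls in both, and 27 of these 27 had the same direction in both pools, with 19 called in both. The calls were chosen in a fit of the same sums, so this agreement is not independent of that choice. Replicate 1 gave higher levels than replicate 2 for Itgb1 and Itga4 in each of the 11 matched pairs of sums, and for Itga5 and Itga6 in 9 of 11. Comparisons of populations that differ in their share of each pool carry that difference, and the blocked values are given above where they changed a call.

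Of 17 other integrin subunits, 7 had enough UMIs to be tested. From arterial-like to EHT-like cells 6 of the 7 were lower and 0 higher, beside 19.9% and 15.0% of all genes. Their median log2 fold change was -1.70, against -0.04 for all genes. Itgb5, a vitronectin receptor chain, had 3 UMIs in EHT-like and 34 in arterial-like cells (0.355 against 2.93 CPM, adjusted p = 0.00716). Itgav, its alpha partner, fell from 22.5 to 5.52 CPM (log2 -1.99 ± 0.29, adjusted p = 7.09e-06), and the collagen receptor chain Itga2 from 7.55 to 2.15 CPM (log2 -1.82 ± 0.41, adjusted p = 0.00122).

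Further subunits differed among the blood populations. Itgb5 was highest in macrophage-like cells (85.9 ± 13.8 CPM, SD, n = 4) and 14.1 CPM in myeloid-like cells (log2 2.58 ± 0.32, adjusted p = 4.1e-07). Itgb7, which pairs with Itga4 in a gut-homing receptor, was 13.8 ± 9.33 CPM (SD, n = 3) in myeloid-like cells, against 0.508 CPM in macrophage-like (adjusted p = 3.66e-07) and 2.26 CPM in Ptprc+Myb+ cells (adjusted p = 0.000865). Itga9, another Itgb1 partner, fell from 60.5 and 46.5 CPM in Kitl+Esm1+ and arterial-like cells to 21.8 CPM in EHT-like and 1.27 CPM in myeloid-like cells, and stood at 20.3 CPM in macrophage-like cells (log2 4.32 ± 0.39 against myeloid-like cells, adjusted p = 3.04e-09). Itga2 was higher in Kitl+Esm1+ than in arterial-like cells (20.5 against 7.55 CPM; log2 1.44 ± 0.33, adjusted p = 0.00458).

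Genes of integrin ligands were mostly endothelial. Of 38 listed genes 27 were tested, and 23 were lower and 2 higher in blood than in endothelium. Of all genes tested, 34.5% were lower and 37.5% higher. The median log2 fold change was -5.02 for the ligand genes and 0.07 for all genes. Madcam1, the ligand of the Itga4 and Itgb7 receptor, fell from 43.9 to 0.0393 CPM (adjusted p = 1.35e-10), and the basement membrane collagens Col4a1 and Col4a2 fell with log2 fold changes of -7.88 and -8.13. From arterial-like to EHT-like cells 20 of 27 were lower and 0 higher, beside 19.9% and 15.0% of all genes. Col4a1 went from 1263 to 254 CPM and the laminin chain Lama4 from 60.7 to 6.78 CPM. Against that direction, Thbs1 (thrombospondin) rose to 876 CPM in megakaryocyte-like cells from 1.04 CPM in Ptprc+Myb+ cells (log2 9.77 ± 0.64, adjusted p = 7.45e-11).

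Genes of proteins that couple integrins to actin went both ways between endothelium and blood. Of 39 adhesion-site genes 38 were tested, 18 higher and 17 lower in blood (beside 37.5% and 34.5% of all genes), with a median log2 fold change of 0.12 (0.07 for all genes). Among them, Fermt2 (kindlin-2) mRNA fell from 195 to 5.36 CPM (log2 -6.34 ± 0.17) and Parva (alpha-parvin) from 84.7 to 0.279 CPM (log2 -8.19 ± 0.28). Fermt3 (kindlin-3), the form that blood cells use to activate integrins, rose from 10.0 to 309 CPM (log2 4.84 ± 0.18) and Parvg (gamma-parvin) from 0.801 to 31.2 CPM (log2 5.84 ± 0.69). Fermt3 and Parvg, and below both kindlins in EHT-like cells and Rasgrp2, were named after their values had been seen.

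The kindlins also differed in opposite directions between arterial-like and EHT-like cells. Fermt2 was 131 CPM in arterial-like and 29.6 CPM in EHT-like cells (log2 -2.14 ± 0.20, adjusted p = 2.42e-08), and Fermt3 was 14.6 and 29.9 CPM (log2 1.03 ± 0.23, adjusted p = 0.00108). In megakaryocyte-like cells the parvin was another: Parvb (beta-parvin) reached 88.2 CPM against 1.93 CPM in Ptprc+Myb+ cells (log2 5.50 ± 0.32, adjusted p = 4.01e-13), while Parvg fell from 20.2 to 0.876 CPM (log2 -4.43 ± 0.57, adjusted p = 1.33e-06). Rasgrp2, which switches on Rap1 upstream of platelet integrins, reached 820 CPM there against 72.6 CPM (log2 3.50 ± 0.19, adjusted p = 1.59e-13).

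**Figure D3:**
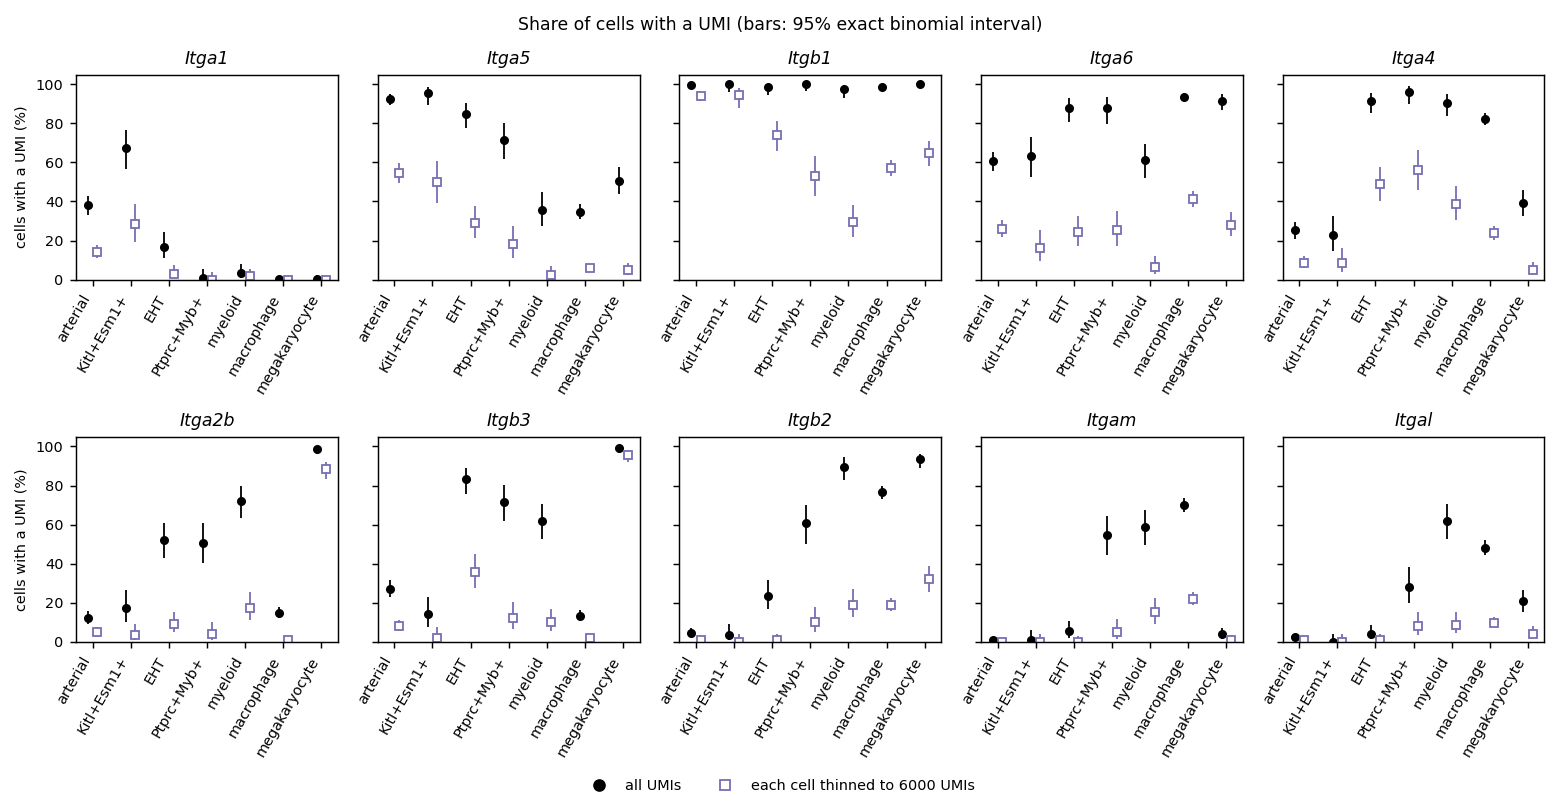
Percentage of cells with at least 1 UMI of each subunit, with 95% exact binomial intervals, from all UMIs (filled circles) and after cells were thinned to 6000 UMIs (open squares). Cells with fewer UMIs were left out of the thinned shares. Itga4 is found in 82.4% to 96.0% of macrophage-like, myeloid-like, EHT-like and Ptprc+Myb+ cells and in 25.2% of arterial-like cells.

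The share of cells with a UMI was also taken, with intervals that cover counting error only. Itga4 was found in 91.6% of EHT-like cells (120 of 131, 95% exact interval 85.5% to 95.7%) and in 25.2% of arterial-like cells (102 of 405, 21.0% to 29.7%). Since EHT-like cells were sequenced deeper (median 45619 against 23984 UMIs), cells were also thinned to 6000 UMIs, which left 48.9% and 8.72%. Cells with fewer UMIs, 15 of them arterial-like, were left out of the thinned shares. Itgb3 was found in 83.2% of EHT-like and 27.2% of arterial-like cells, and in 35.9% and 7.95% after thinning. Macrophage-like cells, taken as a background on the assumption that they lack both platelet chains, had a UMI of Itgb3 in 13.4% and of Itga2b in 14.7% of cells at a median of 57026.5 UMIs, and in 1.97% and 1.15% after thinning. Their platelet list level was higher than that of EHT-like cells, as given above. Itga2b, found in 51.9% of EHT-like and 12.3% of arterial-like cells, came to 9.16% and 5.13% after thinning, with overlapping intervals (4.82% to 15.5% and 3.16% to 7.81%).

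Megakaryocyte-like cells carried the platelet chains and Itgb2 in nearly every cell. A UMI of Itga2b was found in 98.6%, of Itgb3 in 99.1% and of Itgb2 in 93.4% of the 213 cells, and both Itga2b and Itgb3 in 209 of 213. Itgam was found in 3.76% of them, beside 0.988% of arterial-like cells (median 23984 UMIs), and in 0.939% after thinning. In EHT-like cells both platelet chains were found in 60 of 131 cells (45.8%, 95% exact interval 37.1% to 54.7%), which is 88.2% of the 68 cells with Itga2b, and in 3 of 131 after thinning.

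Leukocyte receptor pairs were found together most often in myeloid-like and macrophage-like cells, at their depth. Itgam and Itgb2 were both found in 69 of 126 myeloid-like (54.8%) and 344 of 614 macrophage-like cells (56.0%), in 37 of 99 Ptprc+Myb+ cells (37.4%), and in 4 of 131 EHT-like (3.05%) and 2 of 405 arterial-like cells (0.494%). Itgal and Itgb2 were both found in 74 of 126 myeloid-like (58.7%), 238 of 614 macrophage-like (38.8%), 21 of 99 Ptprc+Myb+ (21.2%) and 42 of 213 megakaryocyte-like cells (19.7%). After thinning, Itgam with Itgb2 remained in 4.76% of myeloid-like, 4.59% of macrophage-like and 0 of 98 Ptprc+Myb+ cells, and Itgal with Itgb2 in 4.76%, 2.30% and 2.04%, so pairs were rarely seen at equal depth. Itgal was found in 0 of 92 Kitl+Esm1+ cells, a count that allows for up to 3.26% of cells with a UMI by the floor of 3 counts (3.93% by the exact interval), which does not limit the cells that express it.

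The study asked what deletion of Nupr1 changes in these cells. The deleted gene was checked first: in macrophage-like cells Nupr1 stood at 33.5 and 52.9 CPM in control and 0.327 and 2.86 CPM in cKO sums of replicates 1 and 2, and in EHT-like cells at 53.5 and 39.5 against 1.37 and 3.23 CPM. It was lower in cKO than in control in each of the 10 matched pairs that held UMIs, and had 0 UMIs in the Kitl+Esm1+ sums.

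Nupr1 itself did not pass the edgeR test after adjustment over all genes. In macrophage-like cells its log2 fold change was -4.39 ± 0.69 (unadjusted p = 1.04e-05, adjusted p = 0.118), and in EHT-like cells -4.40 ± 0.82 (unadjusted p = 6.8e-05, adjusted p = 0.768). It passed in macrophage-like cells with the replicate block (adjusted p = 0.0122) and in both populations with DESeq2 (adjusted p = 0.00124 and 0.0443). A gene that misses the threshold here can therefore differ many-fold between genotypes.

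None of the 10 integrin subunits passed the test between cKO and control in arterial-like, Kitl+Esm1+, EHT-like, Ptprc+Myb+ or macrophage-like cells. In these 5 comparisons 0 of 11305 genes passed (0%) with edgeR, which had 85 to 557 genes at an unadjusted p under 0.05, DESeq2 passed 0 to 2, and the fit with the replicate block 2 to 6. Of the 50 member tests 0 had an unadjusted p under 0.05, with 0.0772 the smallest, for Itga4 in Kitl+Esm1+ cells (log2 1.44 ± 0.76). That value rested on the high cKO sum of replicate 1: the pools went opposite ways, with 45.4 against 12.1 CPM in replicate 1 and 2.14 against 7.24 CPM in replicate 2.

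The intervals show what 2 sums a group could exclude. For Itga4 in EHT-like cells the log2 difference was 0.15 with a 95% interval of -0.82 to 1.12, and for Itgb1 in EHT-like cells 0.18 with -0.56 to 0.91. For Itgb3 in EHT-like cells it was 0.16 with -0.77 to 1.08, and for Itga6 in macrophage-like cells -0.39 with -1.003 to 0.22. The difference of the cKO effect between populations was tested as an interaction, and 0 of 10 members passed (0 with an unadjusted p under 0.05), as did 0 of all 11305 genes (113 with an unadjusted p under 0.05).

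**Figure D4:**
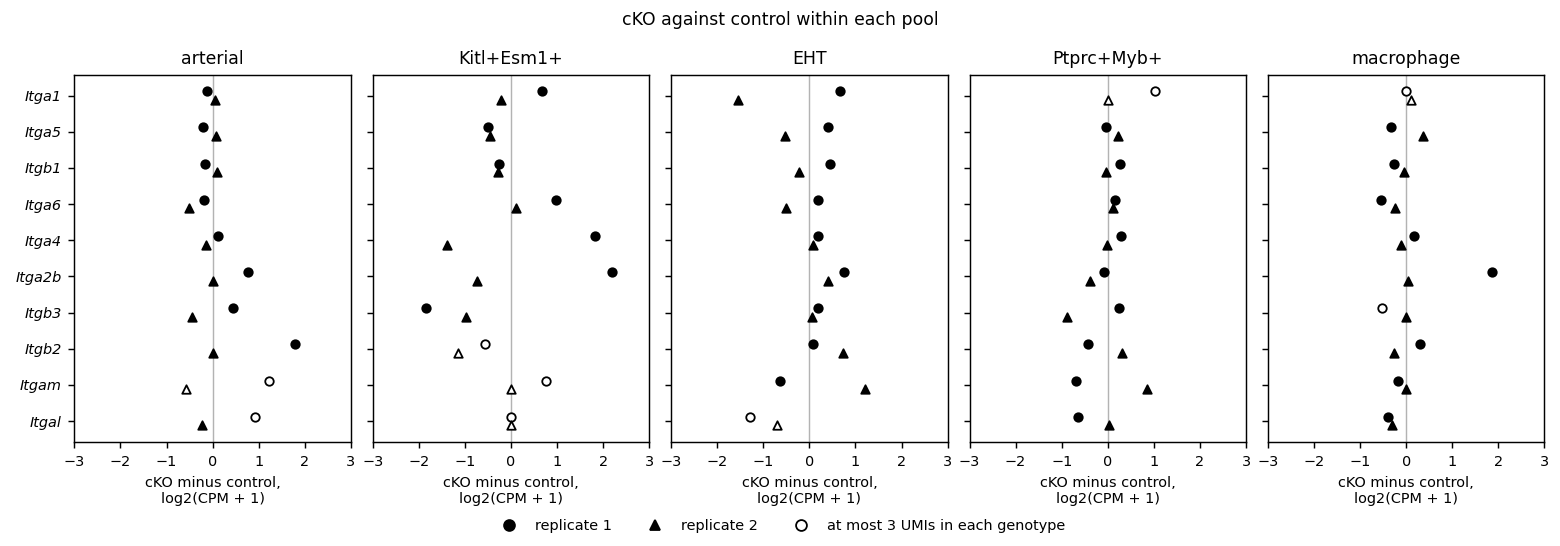
Difference between cKO and control in log2(CPM + 1) within each pool, for 5 populations, with circles for replicate 1 and triangles for replicate 2. Open points held at most 3 UMIs in each genotype. Most filled points lie within 1 log2 unit of 0, and Itga4 in Kitl+Esm1+ cells lies on opposite sides of it in the 2 pools.

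Megakaryocyte-like and myeloid-like cells had too few sums for a test. Megakaryocyte-like cells of replicate 2 held 947 CPM of Itgb3 in control and 912 in cKO, 592 and 612 of Itga2b, and 84.0 and 82.2 of Itgb2. Myeloid-like cells of replicate 2 held 76.3 CPM of Itga4 in control and 118 in cKO, and 23.4 and 44.7 of Itgam, with no replicate for either difference.

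The genes with the most similar pattern were found by Pearson correlation of log2(CPM + 1) over the 25 sums, which share libraries and population, among 11305 genes. Itga5 was most like Plxnd1 (r = 0.991) and Nfib (0.987), and Itga1 most like Cd40 (0.970) and Prrg3 (0.965). Itgb2 was most like Hmha1 (0.980) and Ncoa4 (0.963), Itgam most like Rassf5 (0.969) and Tyrobp (0.965), and Itgal most like Cd52 (0.964) and Evi2a (0.958). Itga2b was most like Rasgrp2 (0.956) and Nt5c3 (0.938), and Itgb3 most like Tal1 (0.939) and Ctdspl (0.937). Itgb1 was most like Ctnna1 (0.953) and Cdc42bpb (0.945), and Itga4 most like Ssrp1 (0.933) and Rps14 (0.915). The lowest value was that of Itga6, with Dmxl1 (0.856) and Ppp1r9b (0.832).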

How the data were processed

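CD31+CD44+ cells from the caudal region of E10.0 control and cKO embryos were sequenced in 2 pooled 10x libraries. Per the labels, the authors aligned reads with Cell Ranger 5.0.1 to mm10 and assigned genotypes by hashtag, and the deposited values are unnormalized UMI counts for each gene in each cell. Free RNA and cell numbers were not corrected for. All deposited cells were kept, including 101 outside the limits the study states (all in replicate 1). Gates were at least 1 UMI per 10000 (C1qa, Gp9, Mpo, Fcgr3, Gja5) or 0.3 (Kitl, Esm1, Gfi1, Neurl3, Ptprc, Myb). No doublet caller was run. Cells in 2 gates were counted as Kitl+Esm1+ (63 also arterial-like), EHT-like (49 also arterial-like) or Ptprc+Myb+ (28 also EHT-like). Of those also in the Ptprc with Myb gate, 41 were counted as myeloid-like and 19 as macrophage-like. Cells in any other combination of gates were left out. Sums of at least 10 cells were fitted with edgeR 4.0.16 (R 4.3.3: filterByExpr, TMM, robust quasi-likelihood test, Benjamini-Hochberg adjustment over 11305 genes, threshold 0.05). Blood is the mean of 4 population coefficients and endothelium of 2. Sums of a replicate share a library, and their deviations correlated across genes with r of 0.184 to 0.461. The main fit had population and genotype terms and no replicate term, so it did not pair these sums. The replicate block did so as an alternative. The sums are not shown to be separate animals, so p-values measure the spread between sums, which may be technical. The members and gene lists were chosen with earlier results of these data known. Beyond the members, the text names other subunits, the 2 genes most like each member, and up to 5 called list genes with the largest change per comparison. Alternatives were a replicate block, DESeq2 1.42.0, other size factors, no filter, other gates, control cells only, the stated limits and leaving out each replicate. Promoters came from RefSeq (GRCm38.p6) and gene positions from the GRCm38 annotation; the annotation behind the counts is not given in the sources used here.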

Additional observations from a re-analysis of the deposited data

Results flagged for a closer look

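Of 49 groups of 4 sums examined, 4 held a sum far from the other 3 by Dixon's 95% critical value, which about 1 group in 20 passes by design where values are continuous. Itga2b in arterial-like cells was 3.50 CPM in control replicate 1, against 6.61 to 6.72 CPM in the other sums. The other flags rest on 1 or 2 UMIs against zeros, where that rate does not apply. Itga1 was 1.03 CPM (2 UMIs) in the cKO replicate 1 sum of Ptprc+Myb+ cells and 0.0752 CPM (1 UMI) in the cKO replicate 2 sum of macrophage-like cells. Itgam was 0.698 CPM (1 UMI) in the cKO replicate 1 sum of Kitl+Esm1+ cells. In each of these 3 groups the remaining sums held 0 UMIs.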

How the results depend on the processing

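Of the 44 member calls, 25 held in every alternative. Values that changed sign with a call on either side did so with the longer marker lists: Itgam (-0.98) and Itgb3 (1.40) in myeloid-like against Ptprc+Myb+ cells, Itga1 (4.77) and Itga5 (0.54) in megakaryocyte-like against Ptprc+Myb+ cells, and Itga6 (0.59) in Kitl+Esm1+ against arterial-like cells. The cause was not tested. Counts below are members or genes called.

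With control cells only, fewer samples entered the fit. Members called were then 5 (EHT-like against arterial-like), 4 (Ptprc+Myb+ against EHT-like), 2 (myeloid-like against Ptprc+Myb+), 5 (megakaryocyte-like against Ptprc+Myb+) and 0 (Kitl+Esm1+ against arterial-like). Doubled gates gave 3 for Ptprc+Myb+ against EHT-like cells. For Kitl+Esm1+ against arterial-like cells, the replicate block gave 2, no filter 2, halved gates 0, doubled gates 2, longer lists 3 and the stated limits 0. Leaving out a replicate gave 4 to 7 members (Ptprc+Myb+ against EHT-like), 4 to 6 (myeloid-like against Ptprc+Myb+), 5 to 7 (macrophage-like against myeloid-like), 5 to 8 (megakaryocyte-like against Ptprc+Myb+) and 0 to 2 (Kitl+Esm1+ against arterial-like).

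Over all genes, EHT-like against arterial-like cells gave 3946 calls, 1061 with control cells only, 6532 with longer lists and 2479 to 3576 leaving out a replicate. Ptprc+Myb+ against EHT-like cells gave 1742, with 2668 under the replicate block, 658 with control cells only, 726 with doubled gates, 4453 with longer lists and 896 to 1858 leaving out a replicate. Myeloid-like against Ptprc+Myb+ cells gave 2865, then 785, 1026 with longer lists and 1364 to 2275. Macrophage-like against myeloid-like cells gave 2989, then 1355 and 1508 to 3877, and megakaryocyte-like against Ptprc+Myb+ cells 5037, then 2319 and 3287 to 4879. Kitl+Esm1+ against arterial-like cells gave 961, with 1667 under the replicate block, 158 with control cells only, 2346 with longer lists and 633 to 939 leaving out a replicate. For cKO against control (0 calls), in the order arterial-like, Kitl+Esm1+, EHT-like, Ptprc+Myb+ and macrophage-like, the replicate block gave 3, 6, 2, 3 and 4 genes and no filter 19, 41, 19, 46 and 20. DESeq2 gave 1, 1, 1 and 2 in the last 4, separate fits 1 in EHT-like and 1 in Ptprc+Myb+ cells, and leaving out a replicate 0 to 8. Apart from the calls named in the text, the block changed no other member call.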

Other observations

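The 432 cells that met no gate belong to no comparison above. Their median was 66788 UMIs. Itgb1 was found in 97.5% of them, Itga6 in 78.9%, Itga4 in 71.3% and Itga5 in 58.6%, while Itga1 was found in 20.8%. The marker lists showed endothelial and blood transcripts side by side in their sums, with 630 to 2041 CPM of the pan-endothelial list and 323 to 1476 CPM of the progenitor list.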
